A study of Arabidopsis thaliana with 6 samples.

Results

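Plant photoreceptor genes are described here in seedlings of the Arabidopsis thaliana mutant hrlp-2, which the labels call a knock out of HRLP, and in Columbia wild type (WT) seedlings. The members are the 10 genes of the light-absorbing receptor families as they are named in this plant, and they were chosen by name. They are the phytochromes PHYA, PHYB, PHYC, PHYD and PHYE, the cryptochromes CRY1 and CRY2, the phototropins PHOT1 and PHOT2, and the UV-B receptor UVR8. All 10 had a row among the 22759 named rows of the deposited tables, and all 10 passed the filter on low values. Total RNA was taken from shoots (aerial parts) of 9-day-old seedlings kept in 16 h light and 8 h dark at 23 ± 2 °C. There were 3 libraries of hrlp-2 and 3 of WT. Each library is labelled a biological replicate. Both groups had the same age, tissue and growth conditions, and they differed in the hrlp-2 allele. The study's question, as far as its labels give it, is what loss of HRLP changes in the seedling transcriptome. HRLP encodes an RNA-binding protein related to hnRNP R. The sources used here give neither the time of day of harvest nor the position of the hrlp-2 lesion.

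Phytochromes carry a bilin chromophore and switch between a red-absorbing and a far-red-absorbing form, and the active form enters the nucleus, where it removes PIF transcription factors. Cryptochromes and phototropins carry flavins and sense blue light: cryptochromes act in the nucleus on COP1/SPA and on transcription factors, and phototropins are membrane-bound kinases that steer phototropism, chloroplast movement and stomatal opening. UVR8 senses UV-B through its own tryptophans and also acts through COP1. In green seedlings these receptors together set hypocotyl growth, greening, shade responses and flowering time.

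Values are CPM, reads of a gene per 1000000 reads of its library, as the authors deposited them. Each CPM stood for 19.95 to 25.18 reads, estimated from the spacing of the low values. Fold changes are hrlp-2 over WT on the log2(CPM + 0.5) scale after rescaling the libraries. Tests were made with limma, and p-values were adjusted by Benjamini-Hochberg across 18643 tested rows, at a threshold of 0.05. The HRLP row had 16.76, 17.03 and 15.88 CPM in the hrlp-2 libraries, against 30.03, 33.04 and 30.37 CPM in the WT libraries. Its mean in hrlp-2 was 53.2% of the WT mean (limma log2 fold change -0.87, SE 0.0647, adjusted p = 3.99e-12), so the labelled mutants were lower in all 3 libraries and still held transcript. The row covers the gene as a whole, and whether the remaining reads span the lesion was not tested. WT replicate 3 stood apart within its group for part of the genes: a chi-square statistic per gene averaged 13.4 and 11.2 against WT replicates 1 and 2, and 2.25 to 2.51 in the other pairs within a group. Results on the members are therefore given with and without that library where it matters.

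PHYA, CRY1 and CRY2 were higher in hrlp-2, by folds of 1.16, 1.12 and 1.13, and they were the members that passed the test. In the lower direction 0 members passed in limma and 0 in limma-voom, against 1, PHOT2, at an unadjusted p below 0.05, and 7 of 10 did not pass. Over all rows tested, 20.4% passed, with 11.0% higher and 9.31% lower. The members' median log2 fold change was 0.02 and their median absolute change was 0.05, against 0.00 and 0.11 over all rows tested. Among all rows that passed, the median absolute change was 0.23, so the 3 photoreceptor differences lay under that size. The libraries are bulk tissue, in which more cells of an expressing type and more transcript per cell cannot be told apart.

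**Figure D1:**
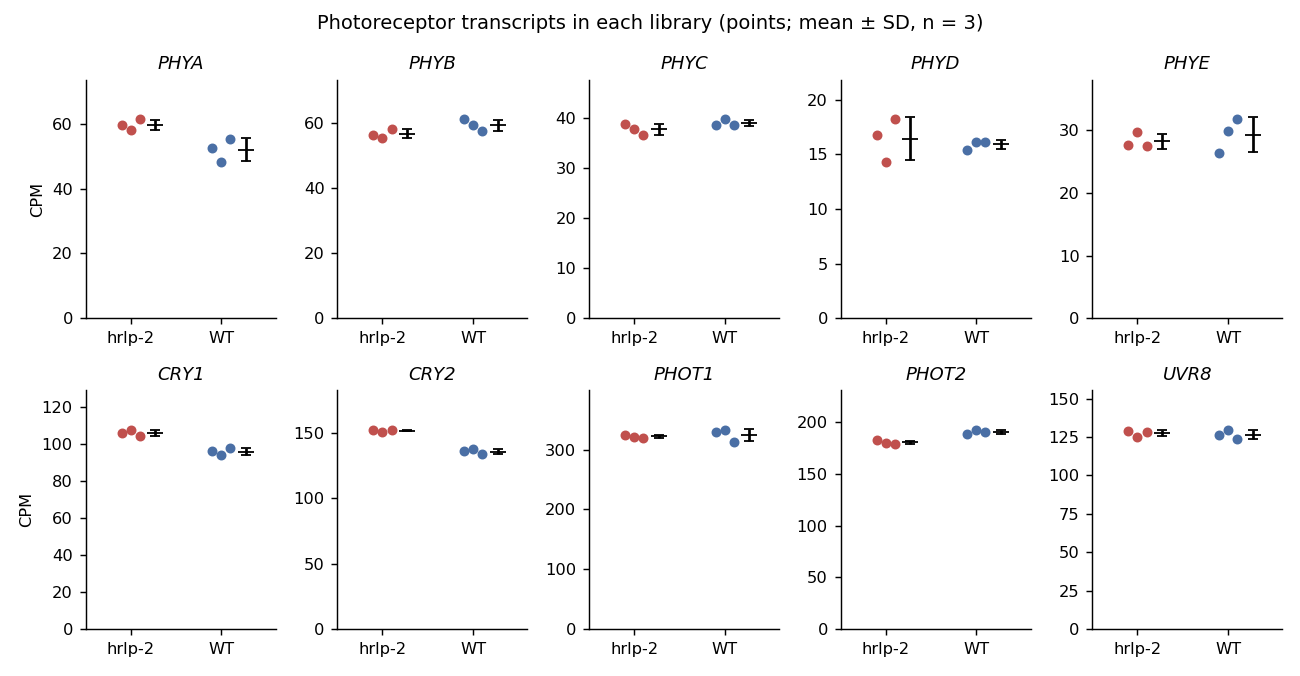
CPM (vertical axes, starting at 0, with a scale per gene) of the 10 photoreceptor genes in the 3 hrlp-2 libraries (red) and the 3 WT libraries (blue), with the mean and SD of each group beside its points. The hrlp-2 points of PHYA, CRY1 and CRY2 lie above the WT points, those of PHOT2 lie below them, and the points of the other 6 genes overlap.

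PHYA, the light-labile phytochrome that acts in far-red and very weak light, had 59.76, 58.29 and 61.42 CPM in hrlp-2, against 52.61, 48.25 and 55.49 CPM in WT. Every hrlp-2 library lay above every WT library, and the WT libraries spread more widely. The means were 59.82 ± 1.57 CPM in hrlp-2 and 52.12 ± 3.65 CPM in WT (SD, n = 3 each). In limma the fold was 1.16 with a 95% confidence interval of 1.09 to 1.25 (log2 fold change 0.22, SE 0.048, adjusted p = 0.000992). Without WT replicate 3 the log2 fold change was 0.27, and without WT replicate 2, the lowest WT library, it was 0.16. Both fits still passed the test. About 1088 to 1505 reads per library stood behind these values.

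CRY1, the cryptochrome that restrains hypocotyl growth in blue light, had 106.06, 107.4 and 104.09 CPM in hrlp-2, against 95.95, 94.15 and 97.5 CPM in WT. The groups did not overlap, and each was narrow. The means were 105.9 ± 1.66 CPM in hrlp-2 and 95.87 ± 1.68 CPM in WT (SD, n = 3 each). The fold was 1.12 (95% interval 1.07 to 1.18, limma log2 fold change 0.16, SE 0.0348, adjusted p = 0.000777).

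CRY2, the light-labile cryptochrome known for its part in flowering under long days, had 151.92, 150.9 and 151.74 CPM in hrlp-2, against 135.88, 137.3 and 133.53 CPM in WT. Again the groups were apart, and the hrlp-2 libraries were nearly level with one another. Its means were 151.5 ± 0.544 CPM in hrlp-2 and 135.6 ± 1.9 CPM in WT (SD, n = 3 each). The fold was 1.13 (95% interval 1.09 to 1.18, limma log2 fold change 0.18, SE 0.0301, adjusted p = 3.21e-05). Leaving out WT replicate 3 gave log2 fold changes of 0.18 for CRY1 and 0.17 for CRY2, both past the threshold.

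The promoters of the 3 genes that rose are shown because their transcripts moved together, and that of PHYB because it differs from them in the motifs searched. Each line is the 250 bases before the annotated gene start, 5′ to 3′ on the gene's own strand, from RefSeq's TAIR10.1 assembly, and capitals mark the motif matches. The windows are chr1:3100820-3101069 (minus strand) for PHYA, chr4:5723401-5723650 (plus) for CRY1, chr1:1188697-1188946 (minus) for CRY2 and chr2:8139506-8139755 (plus) for PHYB.
PHYA promoter: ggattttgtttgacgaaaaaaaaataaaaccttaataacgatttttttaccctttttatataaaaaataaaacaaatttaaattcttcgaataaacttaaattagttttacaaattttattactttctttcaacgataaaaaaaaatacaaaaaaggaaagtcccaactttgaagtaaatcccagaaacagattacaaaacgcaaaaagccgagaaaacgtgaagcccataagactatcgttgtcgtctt
CRY1 promoter: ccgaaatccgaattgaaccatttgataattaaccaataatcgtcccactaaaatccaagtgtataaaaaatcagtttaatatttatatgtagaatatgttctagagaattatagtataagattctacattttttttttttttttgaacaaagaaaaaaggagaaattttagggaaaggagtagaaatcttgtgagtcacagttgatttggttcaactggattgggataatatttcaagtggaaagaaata
CRY2 promoter: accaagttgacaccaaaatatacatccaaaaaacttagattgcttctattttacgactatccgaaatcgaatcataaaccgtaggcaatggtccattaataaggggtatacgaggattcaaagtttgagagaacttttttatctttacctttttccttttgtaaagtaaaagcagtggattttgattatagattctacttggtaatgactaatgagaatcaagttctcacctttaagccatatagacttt
PHYB promoter: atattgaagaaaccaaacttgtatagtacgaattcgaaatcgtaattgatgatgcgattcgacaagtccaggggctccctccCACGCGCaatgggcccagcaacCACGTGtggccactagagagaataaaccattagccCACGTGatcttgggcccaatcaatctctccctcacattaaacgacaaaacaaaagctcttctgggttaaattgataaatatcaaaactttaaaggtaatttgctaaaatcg
The motifs searched on both strands were the G-box CACGTG, bound by PIFs and HY5, the evening element AAATATCT, the CCA1 site AAAAATCT, the I-box GATAAG, and the FHY3/FAR1 site CACGCGC. The letters of all 5 motifs were absent from the windows of PHYA, CRY1 and CRY2. PHYB held G-box letters starting 146 and 111 bases before its start, and FHY3/FAR1 letters starting 168 bases before it. The only other match among the 10 members was a G-box 75 bases before PHYD. Of 27443 promoters of protein-coding genes, 6.49% held the G-box, 4.79% the evening element, 6.69% the CCA1 site, 12.3% the I-box and 1.06% the FHY3/FAR1 site. These matches are descriptions of letters in a short window, and nothing on binding was measured.

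PHYB, the main receptor for red light in green plants, had 56.5, 55.65 and 58.42 CPM in hrlp-2, against 61.2, 59.38 and 57.71 CPM in WT. The highest hrlp-2 library lay above the lowest WT library, so the groups overlapped. Its log2 fold change was -0.04, with an interval on the fold of 0.91 to 1.03 (limma adjusted p = 0.537). PHYC, which works largely together with PHYB, had 38.79, 37.81 and 36.51 CPM in hrlp-2, against 38.62, 39.69 and 38.56 CPM in WT. It too overlapped (log2 fold change -0.03, fold interval 0.91 to 1.05, limma adjusted p = 0.769).

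PHYD, the closest relative of PHYB, was the weakest member, with 16.8, 14.34 and 18.19 CPM in hrlp-2, against 15.4, 16.14 and 16.16 CPM in WT. The hrlp-2 libraries lay on both sides of the WT libraries. Their coefficient of variation was 11.9%, against 2.72% in WT. Counting alone gives 5.9% at 286 reads, the lowest of the 286 to 423 reads per library. The log2 fold change was 0.06 (fold interval 0.93 to 1.17, limma adjusted p = 0.668), and without hrlp-2 replicate 3 it was -0.01. PHYE, known in shade avoidance and flowering, had 27.6, 29.67 and 27.49 CPM in hrlp-2, against 26.37, 29.89 and 31.73 CPM in WT. Here the WT libraries enclosed the hrlp-2 libraries (log2 fold change -0.03, fold interval 0.90 to 1.07, limma adjusted p = 0.802), and without WT replicate 3 the log2 fold change was 0.03.

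PHYB and PHYD are similar enough in sequence that the authors' counting could have split or dropped some of their reads. Their coding sequences were identical at 80.4% of 3455 aligned bases, and the longest run they share is 43 bases. It is shown because a read lying wholly inside it, of 43 bases or fewer, has no unique origin. A longer read reaches bases outside the run, and read length was not taken into account here. The run starts at coding base 1946 of PHYB (chromosome 2) and 1958 of PHYD (chromosome 4).
PHYB and PHYD shared run: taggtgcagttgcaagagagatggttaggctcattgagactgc
The other phytochrome pairs were identical at 59.4% to 64.9% of aligned coding bases, with shared runs of 14 to 26 bases. CRY1 and CRY2 were identical at 62.8%, with a shared run of 17 bases. Between PHOT1 and PHOT2 the identity was 65.7%, and the longest shared run, of 35 bases, starts at coding base 1666 of PHOT1 (chromosome 3) and 1408 of PHOT2 (chromosome 5).
PHOT1 and PHOT2 shared run: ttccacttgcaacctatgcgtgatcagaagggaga
The sources used here do not say how the counting treated reads with several placements, so the values of PHYB and PHYD carry that uncertainty, and those of the other pairs less of it.

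PHOT1, the high-sensitivity phototropin, was the most abundant member, with 325.08, 320.94 and 320.2 CPM in hrlp-2, against 328.78, 332.63 and 313.58 CPM in WT. All hrlp-2 values fell inside the WT range. Its log2 fold change was 0.01, and the interval of 0.97 to 1.04 on the fold was the narrowest among the members (limma adjusted p = 0.879). The sign of this small value turned in 3 alternative fits, to -0.01 without WT replicate 3 and with the deposited values not rescaled, and to -0.00 with upper-quartile scaling.

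PHOT2, which acts in strong blue light and in the chloroplast avoidance response, had 182.34, 179.77 and 178.86 CPM in hrlp-2, against 188.32, 192.21 and 190.83 CPM in WT. Every hrlp-2 library lay below every WT library, but the difference did not pass the test (limma log2 fold change -0.06, 95% interval -0.12 to 0.00, fold 0.96, adjusted p = 0.15). With the deposited values not rescaled it did pass, with a log2 fold change of -0.08 and an adjusted p of 0.049 in limma. In all, 4 of the 10 members had groups that did not overlap, against 33.4% of all rows tested. PHOT2 also overlaps another gene: 38.8% of its annotated exon bases lie opposite AT5G58150 on the other strand. No row of the tables was matched to that locus. The libraries were made with a strand-marking kit, but the sources used here do not give the strand setting of the counting, so reads of the pair cannot be told apart.

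UVR8 had 129.13, 125.33 and 128.22 CPM in hrlp-2, against 126.1, 129.5 and 123.66 CPM in WT. The groups overlapped (log2 fold change 0.03, fold interval 0.98 to 1.07, limma adjusted p = 0.525). For PHYB, PHYC, PHYE, PHOT1 and UVR8 the fold intervals lay within 0.90 and 1.07, so a larger change of these transcripts lay outside them.

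**Figure D2:**
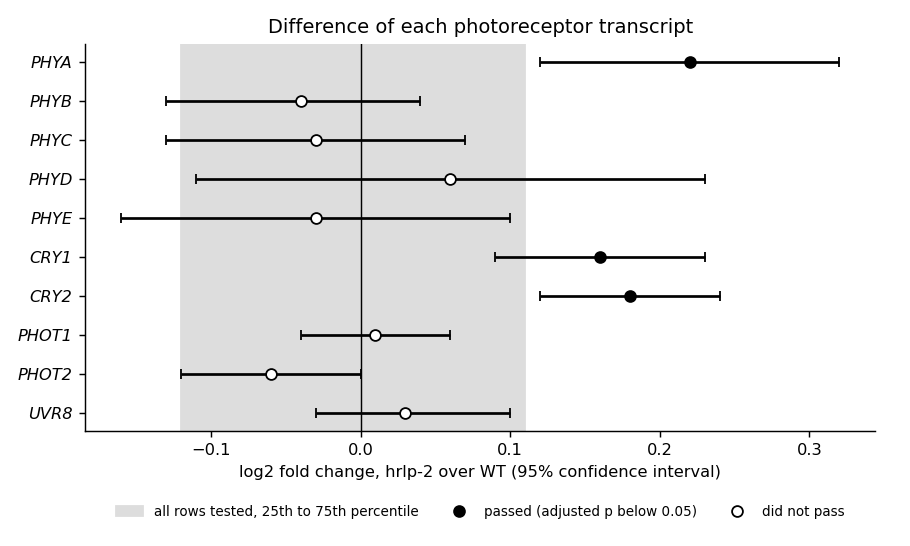
Log2 fold change of hrlp-2 over WT (horizontal axis) for each photoreceptor gene, with its 95% confidence interval from limma. Filled points passed at an adjusted p below 0.05 and open points did not. The grey band spans the 25th to 75th percentile of all 18643 rows tested (-0.12 to 0.11), and PHYA at 0.22, CRY1 at 0.16 and CRY2 at 0.18 lie to its right.

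Summed over families, the cryptochromes differed most. CRY1 and CRY2 together reached 257.98, 258.3 and 255.83 CPM in hrlp-2, against 231.83, 231.45 and 231.03 CPM in WT. The groups were well apart, at 257.4 ± 1.34 CPM in hrlp-2 and 231.4 ± 0.4 CPM in WT (SD, n = 3 each), a ratio of 1.11. An exact two-sided permutation test gave p = 0.1, the smallest that 3 against 3 libraries allow, so no sum or ratio of this design could pass 0.05. The 5 phytochromes summed to 199.1 ± 3.15 CPM in hrlp-2 and 195.7 ± 3.42 CPM in WT, which overlapped (ratio 1.02, exact permutation p = 0.3). The 2 phototropins summed to 502.4 ± 4.43 CPM in hrlp-2 and 515.4 ± 10.3 CPM in WT (ratio 0.975, exact permutation p = 0.2). All 10 members together came to 1086 ± 7.03 CPM in hrlp-2 and 1069 ± 10.2 CPM in WT, a ratio of 1.02 with groups that just did not overlap (exact permutation p = 0.1). Tests were run on 5 such sums, UVR8 alone being one of them, and on the 3 ratios that follow.

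Ratios of 2 transcripts in one library do not depend on how libraries are scaled. PHYA to PHYB was 1.06, 1.05 and 1.05 in the hrlp-2 libraries, against 0.86, 0.813 and 0.962 in the WT libraries. PHYA thus exceeded PHYB in CPM in every hrlp-2 library and in no WT library, a 1.2-fold difference in the ratio (log2 difference 0.265, exact permutation p = 0.1). CRY2 to CRY1 was 1.43, 1.41 and 1.46 in hrlp-2, against 1.42, 1.46 and 1.37 in WT. This ratio overlapped fully (log2 difference 0.0176, exact permutation p = 0.7), and without WT replicate 3 its log2 difference was -0.00554. PHOT2 to PHOT1 was 0.561, 0.56 and 0.559 in hrlp-2, against 0.573, 0.578 and 0.609 in WT. It was lower in every hrlp-2 library, by a fold of 0.955 (log2 difference -0.0662, exact permutation p = 0.1).

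**Figure D3:**
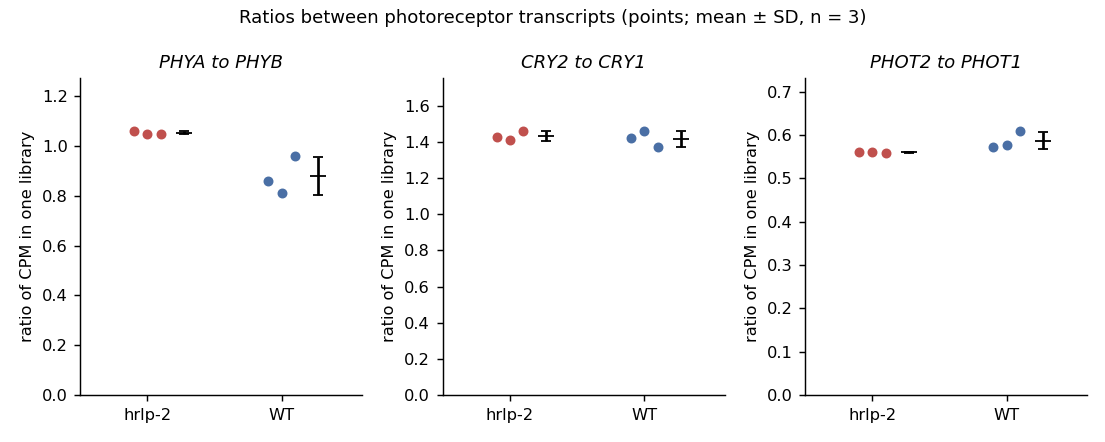
Ratio of the CPM of 2 photoreceptor transcripts within one library (vertical axes, starting at 0) for hrlp-2 (red) and WT (blue), with the mean and SD of 3 libraries beside the points. PHYA to PHYB lies above 1 in the hrlp-2 libraries and below 1 in the WT libraries, CRY2 to CRY1 overlaps, and PHOT2 to PHOT1 lies slightly lower in hrlp-2.

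Set per length, the photoreceptor genes spanned a wide range of levels. Divided by the length of annotated exon in TAIR10.1, PHOT1 was highest, at 88.3 CPM per kb in hrlp-2 and 89.1 CPM per kb in WT. It was followed by UVR8 (57.7 CPM per kb in hrlp-2 and 57.2 in WT) and CRY2 (55.5 CPM per kb in hrlp-2 and 49.7 in WT). Next came CRY1 at 35.1 CPM per kb in hrlp-2 and 31.8 in WT, and PHOT2 at 25.3 CPM per kb in hrlp-2 and 26.7 in WT. These 5 genes stood above all phytochromes.

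Among the phytochromes the order per kb of exon was PHYB, PHYA, PHYC, PHYE and PHYD in hrlp-2. PHYB had 12.6 CPM per kb in hrlp-2 and 13.1 in WT, and PHYA had 11.7 CPM per kb in hrlp-2 and 10.2 in WT. PHYC had 9.92 CPM per kb in hrlp-2 and 10.2 in WT, PHYE had 7.22 CPM per kb in hrlp-2 and 7.5 in WT, and PHYD had 3.91 CPM per kb in hrlp-2 and 3.78 in WT. The library values of neighbours in the order of all 10 genes did not overlap within a group, except for PHYA and PHYC in WT. The length used matters for 2 places. Per kb of coding sequence, PHOT2 stood above CRY1, at 65.6 CPM per kb in hrlp-2 and 69.3 in WT for PHOT2, and 51.7 CPM per kb in hrlp-2 and 46.9 in WT for CRY1. PHOT2 has 7 annotated transcripts whose exons join to 7.12 kb, around 2748 bases of coding sequence. On the coding scale PHYA exceeded PHYB in hrlp-2 (17.7 against 16.2 CPM per kb), while in WT the library ranges of PHYA and PHYB overlapped (means 15.4 and 16.9 CPM per kb).

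**Figure D4:**
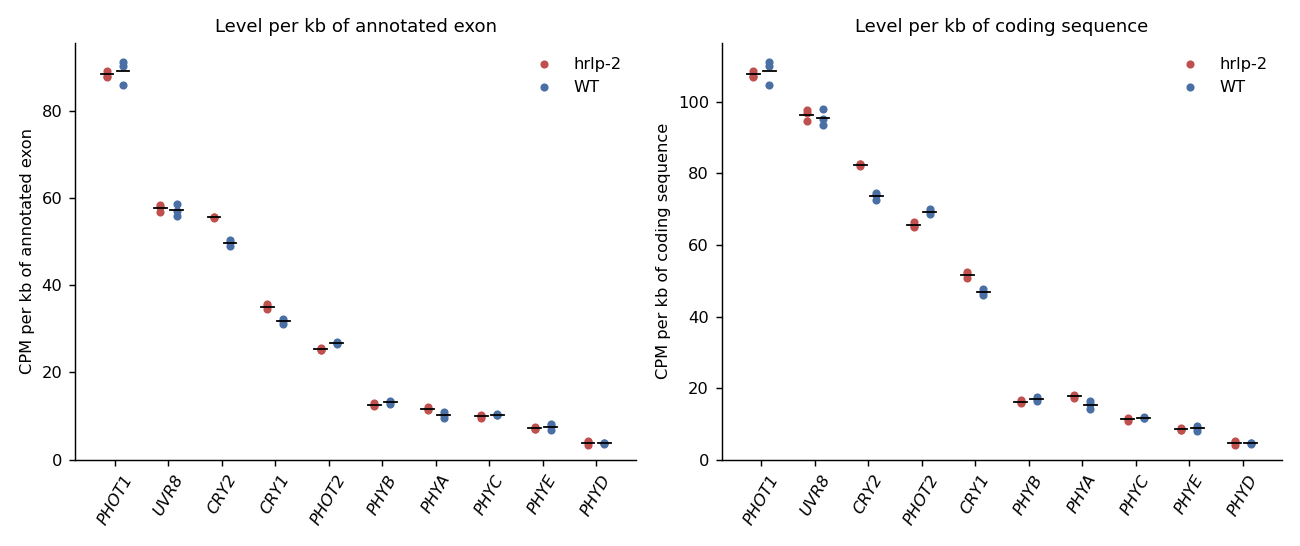
CPM per kb of annotated exon (left panel) and per kb of coding sequence (right panel) for the 10 photoreceptor genes, with 3 hrlp-2 libraries (red) left of 3 WT libraries (blue) and a bar at each mean. Genes run from high to low level, and the 5 phytochromes stand at the low end of both panels.

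As shares of a family's summed level per kb of exon, PHYA made up 25.8 ± 0.331% of phytochrome transcript in hrlp-2 and 22.7 ± 1.33% in WT (SD, n = 3 each), with no overlap. PHYB held 27.7% in hrlp-2 and 29.3% in WT, and PHYC held 21.9% in hrlp-2 and 22.9% in WT. PHYE held 15.9% in hrlp-2 and 16.7% in WT, and PHYD held 8.62% in hrlp-2 and 8.43% in WT. The shares of PHYB, PHYC, PHYD and PHYE overlapped between the groups. CRY2 made up 61.3% of cryptochrome transcript in hrlp-2 and 61.0% in WT, so both cryptochromes were higher at an almost level balance. PHOT1 made up 77.7 ± 0.0365% of phototropin transcript in hrlp-2 and 76.9 ± 0.584% in WT.

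The genes lie on all 5 chromosomes of TAIR10.1, with no shared neighbourhood among the 3 that rose. PHYA (AT1G09570) lies at chr1:3095160-3100819 and CRY2 (AT1G04400) at chr1:1185512-1188696, both on the minus strand, and CRY1 (AT4G08920) lies at chr4:5723651-5727268 on the plus strand. PHYB (AT2G18790) is at chr2:8139756-8144461, PHYC (AT5G35840) at chr5:14007812-14011848, PHYD (AT4G16250) at chr4:9195247-9199840 and PHYE (AT4G18130) at chr4:10042137-10046346. PHOT1 (AT3G45780) is at chr3:16816721-16824210, PHOT2 (AT5G58140) at chr5:23523825-23533111 and UVR8 (AT5G63860) at chr5:25554416-25559499. The coding sequence of PHYA lies on 5 exons, that of both cryptochromes on 4, and those of PHOT1 and PHOT2 on 20 and 22. PHYE shares 60 exon bases on the same strand with AT4G18140, whose row had 11.53 ± 0.845 CPM in hrlp-2 and 12.96 ± 0.25 CPM in WT (limma adjusted p = 0.268).

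Some rows tracked the 3 genes closely across the 6 libraries. Of 11230 rows with a mean of at least 10 CPM, the most alike to PHYA were PBG1, a proteasome subunit (Pearson r = 0.9955), TIM17-3 (0.9911) and AT1G78880 (0.991). Those most alike to CRY1 were IPCS2 (r = 0.9971), AT3G49790 (0.9956) and AT2G20420 (0.9948). Those most alike to CRY2 were XTH22, a cell-wall xyloglucan enzyme (r = 0.9999), BT2 (0.9993) and CYP96A4 (0.9991). The likeness is of shape and not of size: XTH22 had 59.11 ± 0.946 CPM in hrlp-2 and 13.03 ± 1.22 CPM in WT, a fold of 4.48 (limma adjusted p = 2.08e-22), against 1.13 for CRY2. All these correlations run over the same 6 libraries in 2 groups and are given as a description.

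Around the members, 10 lists of light-signalling genes held 118 tested rows, of which 15 were higher in hrlp-2, 15 were lower and 88 did not pass, against shares over all rows tested of 11.0% higher and 9.31% lower. Their median log2 fold change was -0.02, against 0.00 over all rows tested. The counts of each list below stand against the same shares of 11.0% higher and 9.31% lower. Among the photoreceptors outside the 10, the flavin-binding F-box proteins ZTL, FKF1 and LKP2, 0 of 3 rows passed in limma, at an unadjusted p below 0.05 or in limma-voom. ZTL had 35.77 CPM in hrlp-2 and 36.65 CPM in WT (limma adjusted p = 0.887), FKF1 115.8 CPM in hrlp-2 and 122.2 CPM in WT (0.276), and LKP2 13.35 CPM in hrlp-2 and 12.61 CPM in WT (0.509).

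In bilin chromophore synthesis, 1 of 6 tested rows was higher, 1 was lower and 4 did not pass. The heme oxygenase HY1, which opens heme on the way to the phytochrome chromophore, had 136.8 ± 2.92 CPM in hrlp-2 and 128.9 ± 4.14 CPM in WT (fold 1.08, limma adjusted p = 0.0176). This call was lost with the deposited values not rescaled, and without hrlp-2 replicate 1, hrlp-2 replicate 2 or WT replicate 3. The lower row was GUN4, which belongs to the chlorophyll branch of the same pathway, at 55.36 ± 1.23 CPM in hrlp-2 and 65.57 ± 1.74 CPM in WT (fold 0.86, limma adjusted p = 0.00017). HY2, the last enzyme of the chromophore, had 22.97 CPM in hrlp-2 and 26.19 CPM in WT and did not pass (limma adjusted p = 0.071). The lower rows of the list numbered 2 without hrlp-2 replicate 2 and with the deposited values not rescaled. In flavin cofactor synthesis 1 of 6 rows passed, COS1 (lumazine synthase), at 56.81 ± 1.54 CPM in hrlp-2 and 63.51 ± 1.97 CPM in WT (fold 0.91, limma adjusted p = 0.0171). Its call was lost without hrlp-2 replicate 1 or 2, or without WT replicate 2 or 3.

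Of 24 tested phytochrome partners, 3 were higher, 6 were lower and 15 did not pass. TZP, a zinc-finger protein of phytochrome nuclear bodies, had 28.82 ± 0.552 CPM in hrlp-2 and 37.99 ± 3.05 CPM in WT (fold 0.77, limma adjusted p = 1.2e-05). FRS1, of the FHY3/FAR1 family whose founders drive phytochrome A import, had 7.11 ± 0.431 CPM in hrlp-2 and 10.72 ± 0.386 CPM in WT (fold 0.69, limma adjusted p = 0.000152), and PAR2, a shade-induced repressor of growth, also fell, to 10.58 CPM in hrlp-2, against 14.02 CPM in WT (0.00591). PKS2, a phytochrome kinase substrate that also acts with phototropins, was higher, at 39.89 ± 1.11 CPM in hrlp-2 and 32.8 ± 0.943 CPM in WT (fold 1.23, limma adjusted p = 4.7e-05). Of the 5 PIF factors tested, PIF5 was higher, at 47.5 CPM in hrlp-2 and 42.26 CPM in WT (limma adjusted p = 0.00338). PIF4 lay just past the threshold in the lower direction, at 78.3 CPM in hrlp-2 and 85.55 CPM in WT (limma adjusted p = 0.0406). PIF1, PIF3 and PIF6 did not pass (limma adjusted p = 0.92, 0.317 and 0.572). The list's lower rows numbered 5 with no filter, in limma-voom and without any single library other than hrlp-2 replicate 1.

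Both BIC genes fell. BIC1 and BIC2 encode proteins that hold cryptochromes inactive by blocking their dimerization. BIC2 had 46.66, 46.26 and 46.73 CPM in hrlp-2, against 57.03, 65.41 and 62.78 CPM in WT (fold 0.77, limma adjusted p = 2.08e-07). BIC1 had 11.75, 11.14 and 10.87 CPM in hrlp-2, against 14.8, 13.79 and 14.58 CPM in WT (fold 0.80, limma adjusted p = 0.00566). In both, every hrlp-2 library lay below every WT library, opposite in direction to CRY1 and CRY2. They were the 2 of 7 tested cryptochrome partners that passed, against 20.4% of all rows tested. Of the 15 names on that list, 7 had a row.

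Phototropin signalling and organ movement held 5 higher rows, 1 lower and 11 that did not pass, with a median log2 fold change of 0.09. The auxin exporter ABCB19, a phototropin target, had 114.8 ± 3.65 CPM in hrlp-2 and 98.52 ± 1.24 CPM in WT (fold 1.18, limma adjusted p = 2.9e-06). PMI1 and PMI2 act in chloroplast movement. PMI1 had 270.7 ± 2.2 CPM in hrlp-2 and 250.5 ± 5.76 CPM in WT (log2 fold change 0.13, limma adjusted p = 0.000302), and PMI2 was the lower row, at 18.69 ± 1.09 CPM in hrlp-2 and 23.62 ± 1.44 CPM in WT (fold 0.81, limma adjusted p = 0.00115). PKS2, counted in this list too, and RPT2 and CHUP1 were the other higher rows.

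On the UVR8 side, 4 of 16 rows were higher, 1 was lower and 11 did not pass, with a median log2 fold change of -0.06. MYB73 and MYB77, transcription factors that bind UVR8 in the nucleus, both rose. MYB73 had 57.92 ± 0.825 CPM in hrlp-2 and 36.38 ± 2.12 CPM in WT (fold 1.61, limma adjusted p = 1.1e-12), and MYB77 had 16.29 CPM in hrlp-2 and 11.19 CPM in WT (fold 1.46, limma adjusted p = 1.42e-05). CHS, the first enzyme of flavonoid synthesis and a classical UV-B target, had 31.62 ± 1.99 CPM in hrlp-2 and 27.75 ± 0.999 CPM in WT (fold 1.15, limma adjusted p = 0.0116). Other tested genes of the list went both ways and did not pass. Among them, RUP1, RUP2, ELIP1, ELIP2, UVR3, GPX7 and FLS1 had lower means in hrlp-2, and SIG5 and MYB111 had higher means. HYH, the homologue of HY5, had 4.2 ± 0.205 CPM in hrlp-2 and 6.72 ± 0.0346 CPM in WT (fold 0.66, limma adjusted p = 0.000527), while HY5 had 9.35 to 10.64 CPM in hrlp-2 and 9.41 to 12.77 CPM in WT and did not pass (limma adjusted p = 0.291).

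Of 20 tested components of the COP1, SPA, DET1 and COP9 complexes, 1 was higher and 19 did not pass. The row that passed was DDB1A, an adaptor of CUL4 ubiquitin ligases, at 56.85 ± 2.24 CPM in hrlp-2 and 51.27 ± 1.25 CPM in WT (fold 1.12, limma adjusted p = 0.00638), a call lost without hrlp-2 replicate 3. Rows of this list that were lower numbered 2 without WT replicate 3 and with the deposited values not rescaled, against 0 otherwise. COP1 itself had 36.36 CPM in hrlp-2 and 40.41 CPM in WT, with groups apart and an adjusted p of 0.0756 in limma. Light-response transcription factors counted 2 higher, 4 lower and 10 that did not pass. The lower rows numbered 2 without hrlp-2 replicate 2, WT replicate 1 or WT replicate 2, with no filter and in limma-voom. The higher rows numbered 1 with upper-quartile scaling, with the deposited values not rescaled, and without any single library other than WT replicate 3. MYB30 had 38.37 ± 1.69 CPM in hrlp-2 and 27.13 ± 1.43 CPM in WT (fold 1.43, limma adjusted p = 2.24e-08), BBX4 had 231.0 ± 6.0 CPM in hrlp-2 and 256.6 ± 9.15 CPM in WT (fold 0.91, limma adjusted p = 0.000873), and BBX25 was near the threshold at 3.647 CPM in hrlp-2 and 4.967 CPM in WT (limma adjusted p = 0.0487). Among 13 shade markers 1 passed, BBX24, at 111.0 CPM in hrlp-2 and 120.7 CPM in WT (fold 0.93, limma adjusted p = 0.044). This call was lost without a filter on low values, with limma-voom, and without hrlp-2 replicate 2, WT replicate 1 or WT replicate 2. Several of the other shade markers, such as PIL1 at 0.4367 CPM in hrlp-2 and 0.5567 CPM in WT, lay near the filter on low values. At such levels fold changes are understated, so rows that did not pass there do not show an unchanged level.

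**Figure D5:**
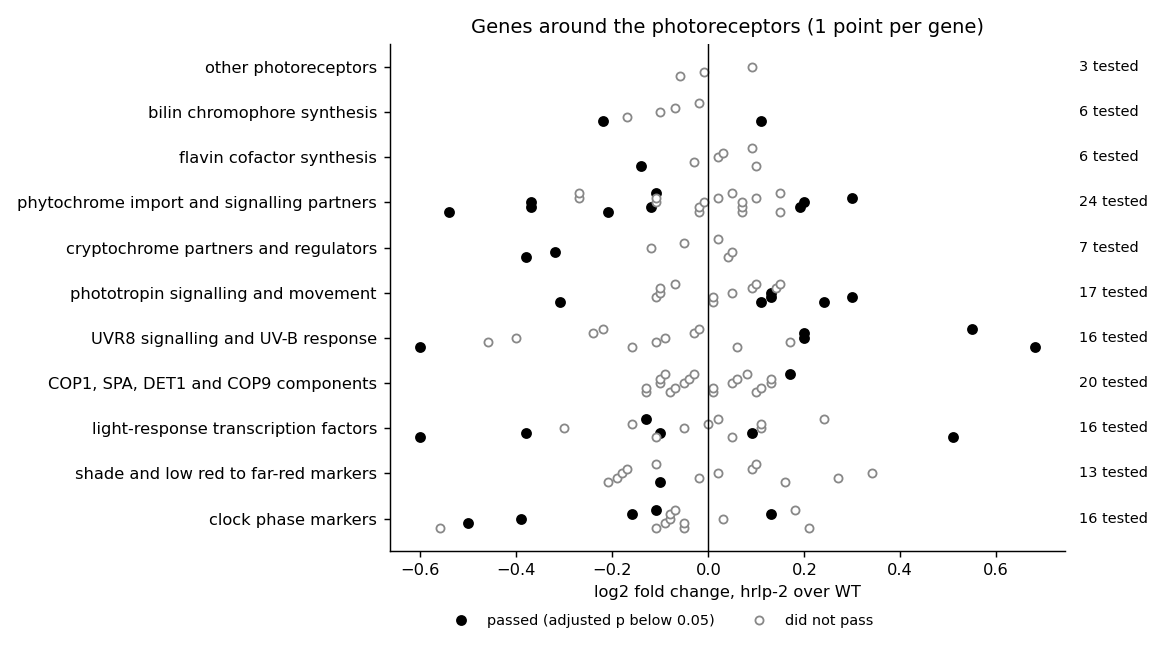
Log2 fold change of hrlp-2 over WT (horizontal axis) for each tested gene of the light-signalling lists and of the clock list, 1 point per gene and list. Filled points passed at a limma adjusted p below 0.05. Some genes, such as PKS2 and HYH, stand in more than 1 list, and the filled points lie on both sides of 0.

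Transcripts of some photoreceptors follow the day, so clock genes are given beside the members. The evening gene TOC1 had 157.2 CPM in hrlp-2 and 167.1 CPM in WT, and the morning gene CCA1 had 1.737 CPM in hrlp-2 and 1.887 CPM in WT. Neither passed the test (limma adjusted p = 0.128 for TOC1 and 0.909 for CCA1). TOC1 was nevertheless lower in every hrlp-2 library than in every WT library, and CCA1 was at a low level. Of 16 tested clock genes, 1 was higher, 4 were lower and 11 did not pass, against 11.0% higher and 9.31% lower over all rows tested. With the deposited values not rescaled, 7 clock genes were lower, and with any single library left out 3 to 5 were. The median log2 fold change of the list was -0.08. Summed, the 17 clock genes with a row had 935.7 to 961.2 CPM in hrlp-2 and 1034 to 1041 CPM in WT. PRR7 had 109.4 ± 8.38 CPM in hrlp-2 and 145.2 ± 2.06 CPM in WT (fold 0.76, limma adjusted p = 2.76e-09), and LNK2 had 24.24 ± 0.255 CPM in hrlp-2 and 35.14 ± 2.87 CPM in WT (fold 0.71, limma adjusted p = 1.25e-07). PRR3 had 76.86 CPM in hrlp-2 and 87.13 CPM in WT (limma adjusted p = 0.00226), and LUX had 106.0 CPM in hrlp-2 and 98.45 CPM in WT (0.00841), a call lost without WT replicate 2. GI was the remaining lower row, at 106.7 CPM in hrlp-2 and 117.0 CPM in WT (limma adjusted p = 0.016). The part of clock phase in the photoreceptor differences was not tested.

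Some markers of other tissues and states also differed between the groups, while others in each list did not pass. The counts below stand against 11.0% higher and 9.31% lower over all rows tested. The summed level of 6 leaf photosynthesis markers overlapped, at 47790 to 49150 CPM in hrlp-2 and 48410 to 49460 CPM in WT, and their high level goes with the labelled green shoot tissue. Of the 6, 2 were higher, 1 was lower and 3 did not pass. LHCB1.1, a light-harvesting protein, had 11520 ± 198 CPM in hrlp-2 and 12260 ± 109 CPM in WT (limma adjusted p = 0.000502). PSBO1, a subunit of the oxygen-evolving complex, had 4172 ± 24.7 CPM in hrlp-2 and 3850 ± 77.4 CPM in WT (limma adjusted p = 1.71e-07), and LHCB2.1 had 1137 CPM in hrlp-2 and 1107 CPM in WT (limma adjusted p = 0.0398). The higher rows numbered 1 with median-of-ratios or upper-quartile scaling, with the deposited values not rescaled, with no filter, and without hrlp-2 replicate 1, hrlp-2 replicate 2, WT replicate 2 or WT replicate 3. Of 9 root markers with a row, the endodermal genes CASP2 and CASP4 were at 0 in all libraries, and the summed level was 396.8 to 412.2 CPM in hrlp-2 and 338.9 to 345.8 CPM in WT. PYK10 and TIP2-2, 2 of the 3 tested, made up most of that sum. PYK10 had 266.9 CPM in hrlp-2 and 231.6 CPM in WT (limma adjusted p = 1.22e-07), and TIP2-2 had 134.8 CPM in hrlp-2 and 107.6 CPM in WT (8.97e-10). The 8 guard cell markers summed to 2398 to 2449 CPM in hrlp-2 and 2086 to 2102 CPM in WT, nearly all of it from the myrosinase TGG1 (2325 CPM in hrlp-2 and 1983 CPM in WT, fold 1.19, limma adjusted p = 4.3e-13), while MYB60 and FAMA were lower. MYB60 had 11.12 CPM in hrlp-2 and 15.49 CPM in WT (limma adjusted p = 0.000659), and FAMA had 22.3 CPM in hrlp-2 and 26.64 CPM in WT (0.00626). The other 5 guard cell markers did not pass. Of 4 tested genes on the list of etiolation and dark markers, EXO, an extracellular growth regulator, and DIN10 were higher. EXO had 51.06 ± 1.27 CPM in hrlp-2 and 19.38 ± 1.41 CPM in WT (fold 2.63, limma adjusted p = 3.11e-18). DIN10 had 109.2 CPM in hrlp-2 and 85.04 CPM in WT (limma adjusted p = 1.55e-09). PORA and BCAT2 were near the filter on low values and did not pass. PORA, an etiolation gene, had 0.59 CPM in hrlp-2 and 0.66 CPM in WT, and BCAT2 had 0.6133 CPM in hrlp-2 and 0.8567 CPM in WT. ASN1, also on that list, had 0.5 CPM in hrlp-2 and 0.3533 CPM in WT and was not tested. Summed, the 5 genes of the list had 160.9 to 162.7 CPM in hrlp-2 and 100.4 to 111.5 CPM in WT. Nearly all of it came from EXO and DIN10, so the sum does not stand for the list as a whole. The part of these markers in the photoreceptor differences was not tested.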

How the data were processed

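RNA was measured in 6 libraries, 3 of hrlp-2 and 3 of WT, grouped by their titles. The authors deposited 1 table per library in CPM (counts per 1000000 reads). The read aligner STAR 2.7.3a and the TAIR10 build were used per the submitters' processing notes; the sources used here do not give the counter, annotation, strand setting or filters. The columns sum to 1000000.4 to 1000007.8. Low values (under 2 CPM) lay on 1 step per library for 87.9% to 89.5% of rows, within 0.0051 CPM, against 20.3% to 25.7% by chance. Whole reads were therefore estimated but not recovered exactly, and the main fit used no count model. Estimated reads, rounded, served for limma-voom and for the chi-square statistics. The step gave 19.95 to 25.18 reads per CPM, and such estimates cover counting error only.

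A row was kept if 3 or more libraries reached 0.5 CPM (18643 of 22759 named rows; 1 unnamed empty row per table was left out). CPM were rescaled by TMM factors (0.99011 to 1.013), a pseudocount of 0.5 was added, and log2 values were tested with limma 3.58.1 in R 4.3.3 (two-sided, intensity trend, Benjamini-Hochberg). Fold changes on this scale understate those of weak genes. Sums and ratios were tested on deposited CPM by exact permutation. Names were matched to loci through RefSeq's TAIR10.1 gene table, which placed 19377 rows, and lengths, coordinates and sequences are of TAIR10.1; the files hold no coordinates. Coding sequences were aligned with Biopython 1.88.

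The members and the 15 gene lists (204 names, 169 with a row) were chosen with earlier results of these data known. Of these names, 10 that stand for another or an unclear gene, or share the locus of such a name, were dropped. Named genes were all members, HRLP, up to 4 passing genes per list by size of change, markers that define a tissue, and for each passing member the 3 rows most alike. ZTL, FKF1, LKP2, HY2, PIF1, PIF3, PIF4, PIF5, PIF6, HY5, COP1, RPT2, CHUP1, TOC1, CCA1, PORA and BCAT2 were named outside that rule, with values known. So were RUP1, RUP2, ELIP1, ELIP2, UVR3, GPX7, FLS1, SIG5, MYB111, PIL1 and GI. Replicates are labelled biological; whether they came from separate sowings is not given, and p-values measure the spread between these libraries. Libraries of one group differed by more than counting noise (median chi-square 0.793 to 0.916 per gene, against 0.455), so none were merged. The first principal component (42.3% of variance) separated hrlp-2 from WT. The main limma fit was first tested on simulated data, and the alternative fits were not. The changed rows were drawn from rows with a WT mean of at least 2 CPM, with a fixed dispersion (spread beyond counting) of 0.003. Of 50 rows changed at each size, 50 were recovered at 2-fold, 47 at 1.5-fold and 14 at 1.2-fold. Among 18633 rows tested, 13 unchanged rows were called. A 1.2-fold difference was thus often missed in that simulation, whose rows were not matched to the levels of the members. Alternatives covered scaling, filter, pseudocount, limma-voom on estimated reads, a replicate block and leaving out each library.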

Additional observations from a re-analysis of the deposited data

How the results depend on the processing

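PHYA, CRY1 and CRY2 passed as higher in all 15 alternatives, with adjusted p (limma) of 0.000255 to 0.0222 for PHYA, 0.000712 to 0.00921 for CRY1 and 2.62e-05 to 0.00041 for CRY2. With one library left out at a time, the log2 fold changes were 0.16 to 0.27, 0.14 to 0.18 and 0.17 to 0.18, and 3 members were higher in every fit. The number of lower members was 0, except 1 (PHOT2, log2 fold change -0.08) with the deposited CPM not rescaled. Signs turned for members that did not pass: PHYD was -0.01 without hrlp-2 replicate 3 (leave-one-out range -0.01 to 0.15), PHYE was 0.03 without WT replicate 3 (-0.10 to 0.03), and PHOT1 was -0.01 without WT replicate 3 and with the deposited CPM not rescaled, and -0.00 with upper-quartile scaling (leave-one-out range -0.01 to 0.02). The UVR8 ratio was 0.998 without WT replicate 3 (range 0.998 to 1.02), and the CRY2 to CRY1 log2 difference was -0.00554 (range -0.00554 to 0.0398). The cause was not tested. TMM rescaling before summing, an alternative added after seeing the data, gave a cryptochrome ratio of 1.13.

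Over all rows, 1617 to 1861 were higher and 1352 to 1477 lower with one library left out, against 2059 higher and 1735 lower with all libraries. Without rescaling, the split was 1639 higher and 2035 lower, and with no filter 1799 and 1419. The 10 light-signalling lists held 12 to 15 higher and 11 to 18 lower rows over all alternatives. Same-numbered libraries did not deviate together (r = -0.046, -0.0271 and -0.0382), so no common shift was seen. These values cannot tell whether such libraries were grown or prepared together. With the replicate number as a block, 2057 rows were higher and 1727 lower, and PHYA kept an adjusted p of 0.000421 (limma), with 3 members higher. For PHYD, the member with the fewest reads, counting error was 5.9% of the level in the library where its reads were fewest.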
